A study of Mus musculus with 33 samples.

Results

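The genes described here are the mitochondrial ribosomal protein genes, taken as every gene whose symbol on the array platform begins with Mrpl or Mrps followed by a number. Of 18193 genes with a probe set of their own, 76 fit that rule, 47 of them Mrpl and 29 Mrps. A gene was tested when a probe set reached a log2 value of 4 on at least 10 of the 33 arrays, which all 76 did, among 9005 genes tested. The lowest value of any of the 76 on any array was 6.13, for Mrps27, so none passed through 1 group alone.

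Mitochondria keep their own ribosome, which makes the few subunits of the respiratory chain that mitochondrial DNA encodes. Its RNAs come from mitochondrial DNA, but its proteins are encoded in the nucleus, made in the cytosol and imported. Some have counterparts in bacterial ribosomes and others are found only in mitochondria. Their transcripts are often read, with those of the respiratory chain, as a gauge of mitochondrial biogenesis; the liver is rich in mitochondria, and the fibrate drugs activate PPARα, the nuclear receptor that drives fatty acid oxidation there.

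Liver RNA came from 33 male C57BL/6J mice aged 17 weeks after 2 weeks on 1 of 3 diets, each hybridised to its own Affymetrix mouse expression array. The 10 control mice ate a research diet whose added fat was sunflower oil (81.3% of it oleic acid) at 7% of energy, the 12 fenofibrate mice the same oil and fenofibrate at 0.03% by weight, and the 11 fish oil mice fish oil (EPA 23.1%, DHA 21.1%) at that same 7%. All were fasted in the morning before tissue was taken. The mice were housed 2 per cage, and which mice shared a cage is not given, so p-values take the mice as independent. Label numbers were paired, each odd number with the even number after it, and both arrays of a pair were always of 1 group. Such pairs, called consecutive label numbers below, correlated at a median of 0.14 in their deviations from the group mean. All other pairs of arrays of a group, which include neighbouring numbers such as 8 and 9, had a median of -0.13. With the pairs as a random block (consensus correlation 0.23) the counts of higher genes given below became 40, 7 and 23. Values are log2 expression after GCRMA, and a difference of 1 is a doubling. A gene was called where the Benjamini-Hochberg adjusted p of limma, over all 9005 genes, was below 0.05. The number of mice limits the precision: the median 95% interval of a fenofibrate difference among the 76 reached 0.12 to either side.

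On fenofibrate the mitochondrial ribosomal protein genes rose as a broad but shallow group. Of the 76 genes, 44 (57.9%) were higher than in control, 1 was lower and 31 were not called. Over all genes tested, 22% were called higher and 18.9% lower. The median difference of the 76 was 0.17, a 1.13-fold change, against -0.0016 over all genes, and 65 of the 76 differences lay above 0, against 49.7% of all genes. Among the 45 called genes the median size was 0.27, and the whole group ranged from -0.14 to 0.84.

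On fish oil few of these genes were called. 8 (10.5%) were higher than in control, with 7.53% of all genes called higher, and 1 (1.32%) was lower, with 7.00% of all genes called lower. The median difference was 0.06, against 0.01 over all genes, and 56 of the 76 differences lay above 0, against 54% of all genes. Set directly against fish oil, fenofibrate gave higher values for 25 of the 76 (32.9%; 19.8% of all genes) and lower values for 2 (19.1% of all genes), with a median of 0.11. The 3 comparisons share arrays, so they are not independent of each other. Of the 44 genes higher on fenofibrate than in control, 23 were also higher than on fish oil.

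**Figure D1:**
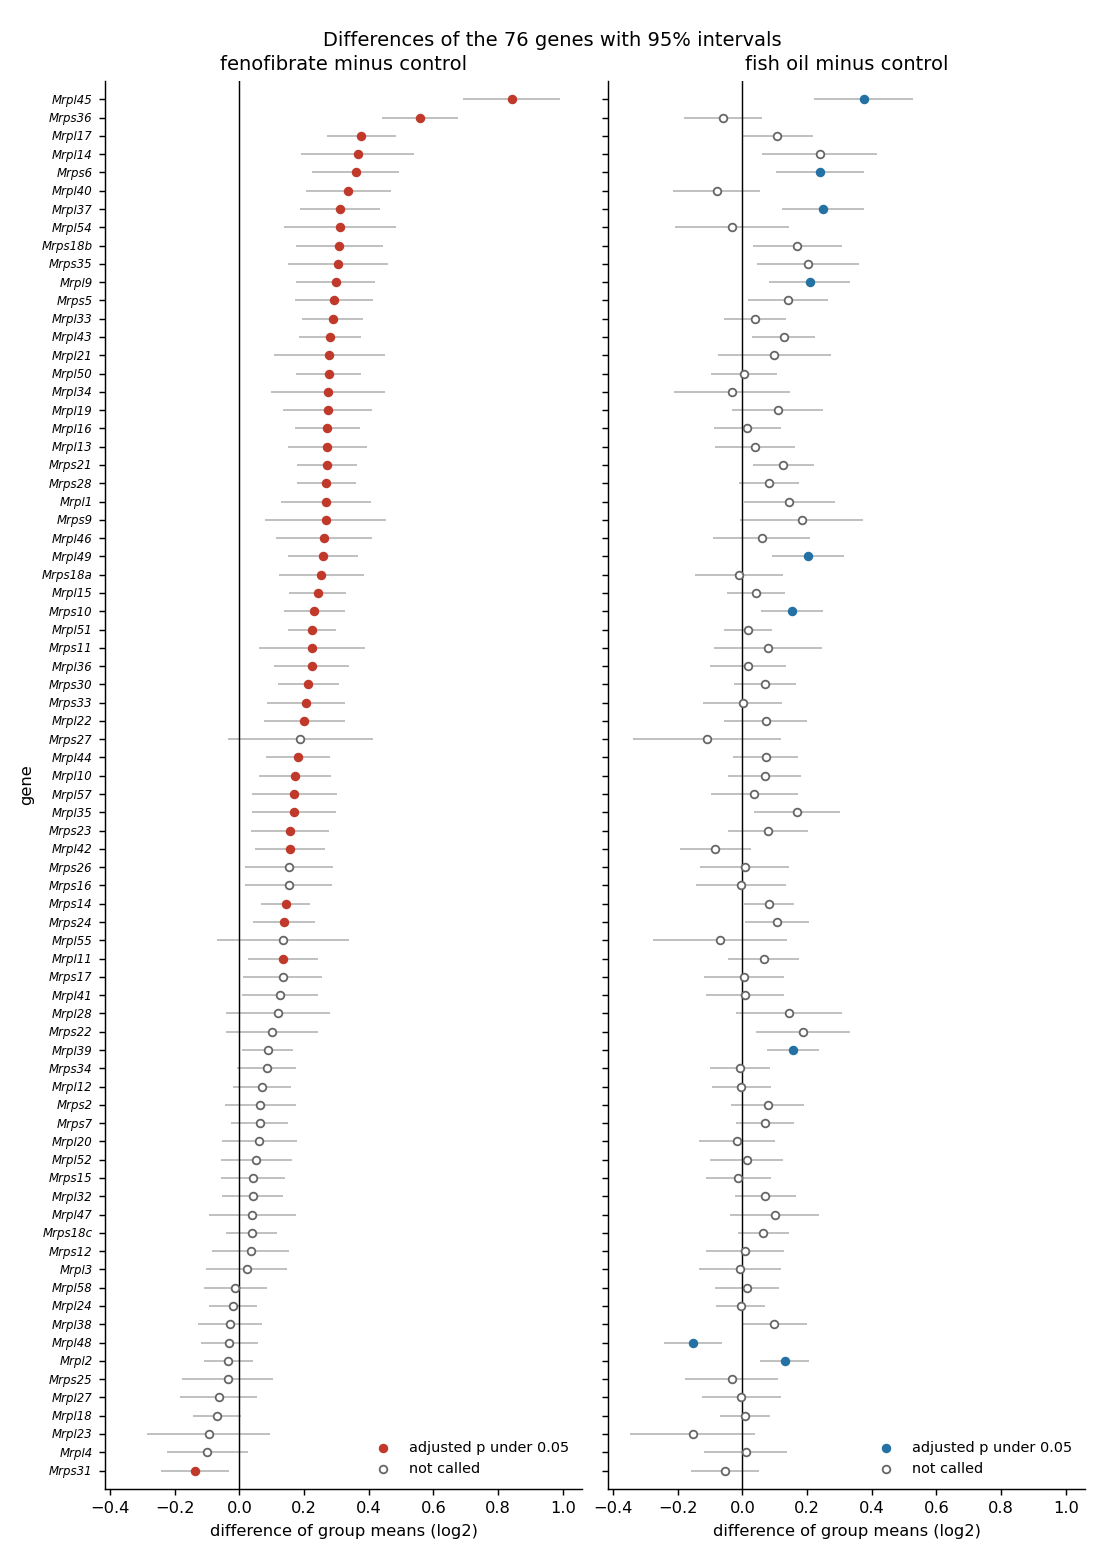
Difference of group means (log2) for each of the 76 genes, fenofibrate minus control on the left and fish oil minus control on the right, with 95% intervals; filled points were called by limma at adjusted p under 0.05. On the left 44 points are called to the right of 0 and 1 to the left; on the right 8 and 1 are.

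Mrpl45 had the largest rise. It encodes mL45, a mitochondrion-specific protein of the large subunit that sits near the exit of the peptide tunnel and helps to attach the ribosome to the inner membrane. Its log2 values ran from 7.03 over a median of 7.18 to 7.50 in control, from 7.72 over 8.07 to 8.47 on fenofibrate, and from 7.43 over 7.64 to 7.66 on fish oil. All 12 fenofibrate arrays lay above every control and every fish oil array, and 10 of the 11 fish oil arrays lay above every control array. The difference was 0.84 ± 0.07 (SE; 1.79-fold, limma adjusted p = 3.79e-11) on fenofibrate over control. On fish oil the rise was 0.37 ± 0.08 (1.30-fold, limma adjusted p = 0.000551), and fenofibrate exceeded fish oil by 0.47 ± 0.07 (limma adjusted p = 3.03e-06). Mrpl45 was the only 1 of the 76 that was higher in all 3 of these comparisons.

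Mrps36 came next, and its name is out of date. Its product, first listed as a small subunit protein, is now known as a component of the 2-oxoglutarate dehydrogenase complex of the citric acid cycle, which it helps to hold together. Values ran from 6.98 over 7.08 to 7.29 in control, from 7.45 over 7.63 to 7.89 on fenofibrate, and from 6.72 over 7.02 to 7.27 on fish oil. The fenofibrate arrays overlapped neither other group, while the fish oil and control arrays overlapped, with 3 fish oil arrays below every control array. Fenofibrate exceeded control by 0.56 ± 0.06 (1.47-fold, limma adjusted p = 1.51e-09) and fish oil by 0.62 ± 0.06 (limma adjusted p = 9.08e-11). Fish oil differed from control by -0.06, with a 95% interval from -0.18 to 0.06. Leaving Mrps36 out of the count, with no new fit, gave 43 of 75 genes called higher on fenofibrate and again a median of 0.17.

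**Figure D2:**
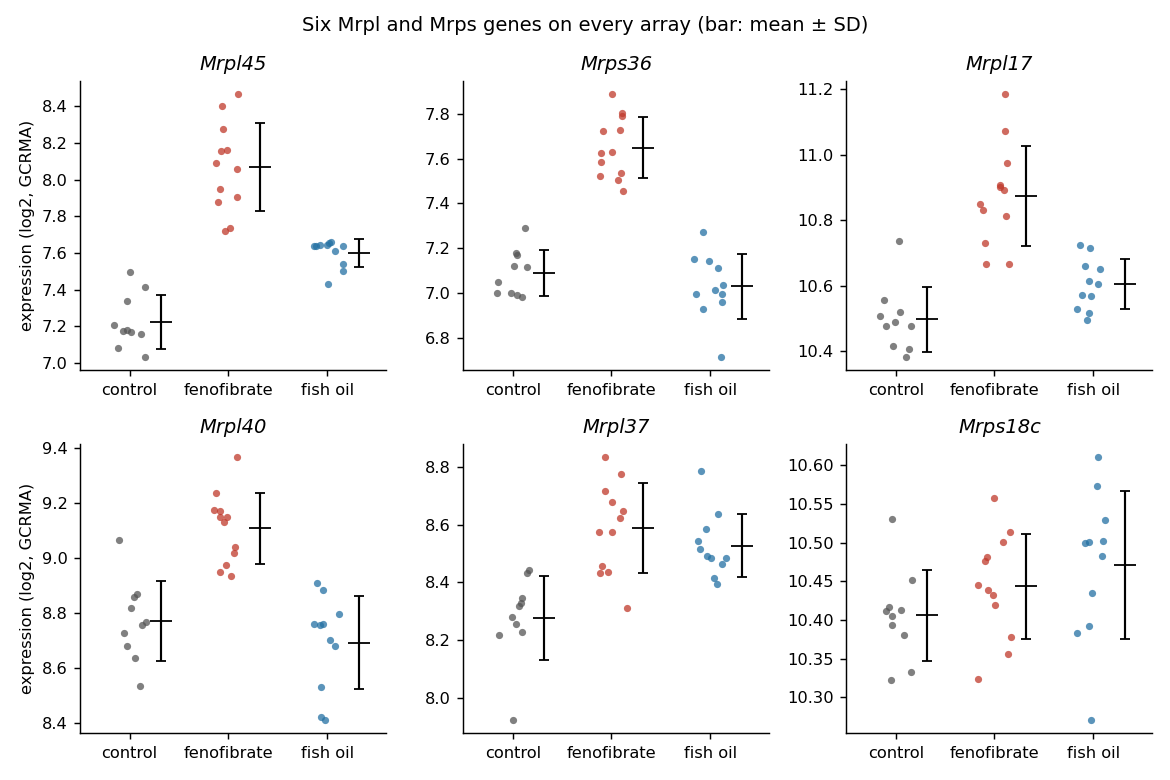
Log2 expression on every array for 6 of the genes, by diet (control n = 10, fenofibrate n = 12, fish oil n = 11); the bar beside each group is the mean ± SD, and the axes start above 0. Fenofibrate arrays stand above all control arrays for Mrpl45 and Mrps36, fish oil arrays lie with fenofibrate for Mrpl37 and with control for Mrpl40, and the 3 groups overlap for Mrps18c.

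The promoters of Mrpl45 and Mrps36 differed in the motifs they held. RefSeq windows (GRCm38.p6) of 300 bases, 250 before and 50 after the start, were at hand for 67 of the 76 genes and were searched on both strands for letters bound by factors known for nuclear-encoded mitochondrial genes. The NRF1 letters, GCGCA and then GCGC with any 1 base between them, were in 12 windows (17.9%; 12.6% over the genes tested and 5.19% over all genes). The ETS letters CCGGAAG, to which GABP binds, were in 25 (37.3%; 21.7% and 9.93%), and the YY1 letters, AAGATGG followed at once by CGG, in 5 (7.46%; 2.79% and 0.995%). Each motif was counted separately, so a window with more than 1 of them enters more than 1 count. The direct repeat of AGGTCA with any 1 base between the copies, to which PPARα binds with its partner RXR, was in none of the 67 windows and in 0.0271% of those of the genes tested. At least 1 of the first 3 motifs was in 36 windows (53.7%; 33% of the genes tested); 21 of those 36 genes were called higher on fenofibrate, as were 38 of all 67. A match describes letters and shows no binding. The 150 bases before the start are printed 5′ to 3′ on the gene's strand for Mrpl45 (chr11:97315566-97315715, plus strand), Mrps36 (chr13:100744660-100744809, minus strand), Mrpl17 (chr7:105811088-105811237, minus strand) and Mrps18a (chr17:46110854-46111003, plus strand), the first 3 as the largest rises and the last as one of the paralogs described further on; capitals mark the NRF1 letters of Mrpl45 and Mrpl17 and the ETS letters of Mrps18a.
Mrpl45: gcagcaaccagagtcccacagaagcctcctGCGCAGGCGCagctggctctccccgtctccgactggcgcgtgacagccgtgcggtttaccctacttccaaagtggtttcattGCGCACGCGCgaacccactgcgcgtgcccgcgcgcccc
Mrps36: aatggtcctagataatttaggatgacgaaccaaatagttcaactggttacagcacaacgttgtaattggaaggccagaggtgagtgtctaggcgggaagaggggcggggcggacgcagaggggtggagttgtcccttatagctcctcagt
Mrpl17: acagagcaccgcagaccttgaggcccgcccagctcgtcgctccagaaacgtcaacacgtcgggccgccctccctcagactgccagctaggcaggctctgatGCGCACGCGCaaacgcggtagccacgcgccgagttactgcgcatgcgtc
Mrps18a: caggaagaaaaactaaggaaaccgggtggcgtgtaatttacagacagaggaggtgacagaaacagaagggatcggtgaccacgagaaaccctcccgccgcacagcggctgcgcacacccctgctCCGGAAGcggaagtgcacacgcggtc
In the printed stretches Mrpl45 carried the NRF1 letters at 120 and 38 bases before the start, and Mrpl17 at 49. Outside them, Mrpl45 held a further NRF1 match and Mrps18a the YY1 letters, both after the start. Mrpl17 also held the ETS letters at 237 bases before the start. Mrps36 carried none of the motifs in its window, nor did Mrpl40 and Mrps6, whose stretches are not printed. The ETS letters were also in the windows of the other paralogs, after the start in Mrps18b and at 156 bases before it in Mrps18c.

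Of the 29 large subunit proteins with a bacterial counterpart, 16 rose on fenofibrate and none fell, with a median of 0.17. Mrpl17, whose product (bL17m) lies near the tunnel exit, ran from 10.38 over 10.48 to 10.74 in control, from 10.67 over 10.87 to 11.19 on fenofibrate and from 10.50 over 10.61 to 10.73 on fish oil. On 9 of the 12 fenofibrate arrays it exceeded every control array. Its rise was 0.38 ± 0.05 (1.30-fold, limma adjusted p = 5.76e-07). Mrpl14, whose product (uL14m) faces the small subunit, rose by 0.37 ± 0.09 (limma adjusted p = 0.000893), with 12 of 12 fenofibrate arrays above the control mean. Mrpl33 and Mrpl16, picked out here after their values were seen, were the genes of this class whose fenofibrate arrays did not overlap another group. For Mrpl33 all 12 fenofibrate arrays (9.49 to 9.75) lay above the control arrays (9.15 to 9.46), and for Mrpl16 all 12 (10.18 to 10.61) lay above the fish oil arrays (9.96 to 10.16). Non-overlapping arrays with fenofibrate higher were seen for 3 of the 76 genes against control (Mrpl45, Mrps36 and Mrpl33) and for 4 against fish oil (Mrpl45, Mrps36, Mrpl40 and Mrpl16), beside 3.58% and 4.09% of all genes; on fish oil against control the count was 0, beside 0.378% of all genes. In this class 3 of the genes that did not pass the test were Mrpl24 at -0.02 ± 0.04, Mrpl3 at 0.02 ± 0.06 and Mrpl12, the stalk protein (bL12m) that recruits translation factors, at 0.07 ± 0.04 (95% interval -0.02 to 0.16).

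Of the 20 mitochondrion-specific large subunit proteins, 14 rose on fenofibrate and none fell, with a median of 0.22. Besides Mrpl45 these included Mrpl40, whose product is mL40. Its values ran from 8.54 over 8.76 to 9.07 in control, from 8.93 over 9.14 to 9.37 on fenofibrate and from 8.41 over 8.76 to 8.91 on fish oil. The fenofibrate arrays lay wholly above the fish oil arrays and overlapped the control arrays. The rise over control was 0.34 ± 0.06 (1.26-fold, limma adjusted p = 7.7e-05) and over fish oil 0.42 ± 0.06 (limma adjusted p = 2.32e-06). Mrpl54, the gene of mL54, rose by 0.31 ± 0.09 (limma adjusted p = 0.00364) and likewise exceeded fish oil, by 0.34 ± 0.08 (limma adjusted p = 0.00124). On the probe sets that stood for them, Mrpl50 and Mrpl51 showed smaller but tight rises of 0.28 ± 0.05 and 0.22 ± 0.04. In each, 11 of 12 fenofibrate arrays lay above every control array. The dimmer probe set of Mrpl50 rose more, by 0.53 ± 0.07 (limma adjusted p = 6.16e-08). Mrpl58, a peptidyl-tRNA hydrolase that frees stalled mitochondrial ribosomes, differed by -0.01 ± 0.05 and was not called.

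Of the 16 small subunit proteins with a bacterial counterpart, 9 rose on fenofibrate and none fell, with a median of 0.15. Mrps6, the gene of bS6m, ran from 8.03 over 8.17 to 8.59 in control, from 8.27 over 8.60 to 8.87 on fenofibrate and from 8.24 over 8.43 to 8.64 on fish oil. The ranges overlapped, yet 12 of 12 fenofibrate arrays lay above the control mean. Its rise was 0.36 ± 0.07 (1.28-fold, limma adjusted p = 4.39e-05). Of the 10 mitochondrion-specific small subunit proteins, 4 rose (Mrps18b, Mrps23, Mrps33 and Mrps35) and 1 fell, with a median of 0.16. Mrps23 was called in 7 of 12 alternative analyses, with an adjusted p of limma up to 0.133. The 1 that fell was Mrps31, the gene of mS31, which ran from 9.35 over 9.41 to 9.60 in control and from 9.06 over 9.30 to 9.58 on fenofibrate. It fell by 0.14 ± 0.05 (SE) on the log2 scale (limma adjusted p = 0.0308). That call was lost in 6 of 12 alternative analyses, where the adjusted p of limma reached 0.134. The classes follow the present structural names of the proteins and were assigned after the values were known; differences between classes were not tested.

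The 3 paralogs of the bacterial protein bS18 did not give the same call on fenofibrate. Mrps18a, whose product has moved to the large subunit as mL66, ran from 8.91 over 9.12 to 9.24 in control and from 9.03 over 9.31 to 9.76 on fenofibrate. Mrps18b, which encodes mS40 of the small subunit, ran from 9.64 over 9.72 to 10.16 and from 9.90 over 10.13 to 10.48. Mrps18c, the paralog that occupies the bacterial position, ran from 10.32 over 10.41 to 10.53 and from 10.32 over 10.44 to 10.56. Fenofibrate arrays were shifted upwards for the first pair and covered the control range for the last. The rises were 0.25 ± 0.07 (limma adjusted p = 0.00212) for Mrps18a and 0.31 ± 0.07 (limma adjusted p = 0.000332) for Mrps18b. For Mrps18c the difference was 0.04 ± 0.04 (limma adjusted p = 0.46), with a 95% interval from -0.04 to 0.12; the differences between the paralogs were not tested. Mrps30, which despite its name encodes a large subunit protein (mL65), rose by 0.21 ± 0.05 (limma adjusted p = 0.000339).

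The genes called on fish oil were partly those of fenofibrate. Mrpl37, Mrpl45, Mrpl49, Mrpl9, Mrps10 and Mrps6 were higher than control on both diets, which is 6 of the 8 fish oil genes and 6 of the 44 fenofibrate genes. Both comparisons use the same control arrays. For Mrps6 the dimmer probe set was not called on fish oil (0.13 ± 0.07, limma adjusted p = 0.257) and was higher on fenofibrate than on fish oil (0.28 ± 0.07, limma adjusted p = 0.00178). For Mrpl9 the dimmest probe set was not called on fish oil either (0.21 ± 0.09, limma adjusted p = 0.116). Mrpl37, the gene of mL37, ran from 7.92 over 8.30 to 8.44 in control, from 8.31 over 8.60 to 8.84 on fenofibrate and from 8.40 over 8.49 to 8.79 on fish oil. In each treated group 9 arrays exceeded every control array. It rose by 0.31 ± 0.06 on fenofibrate (limma adjusted p = 0.000107) and by 0.25 ± 0.06 on fish oil (limma adjusted p = 0.00513), and the difference of 0.06 between the treatments had a 95% interval from -0.06 to 0.18.

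The other fish oil calls were Mrpl39, Mrpl2 and, downwards, Mrpl48. Mrpl2 encodes uL2m, which lies close to the catalytic centre of the ribosome. Its values ran from 10.07 over 10.20 to 10.30 in control, from 10.04 over 10.15 to 10.32 on fenofibrate and from 10.27 over 10.31 to 10.42 on fish oil. All 11 fish oil arrays lay above the control mean. It rose by 0.13 ± 0.04 on fish oil (limma adjusted p = 0.0164) and was lower on fenofibrate than on fish oil, with a difference of -0.16 ± 0.04 (limma adjusted p = 0.000423). Mrpl38, the gene of mL38, was the other gene lower on fenofibrate than on fish oil, with a difference of -0.13 ± 0.05 (limma adjusted p = 0.0311), a call that was lost with no filter (limma adjusted p = 0.0542) and with consecutive label numbers as a random block (limma adjusted p = 0.0693). Mrpl39, whose product (mL39) resembles a threonyl-tRNA synthetase, rose by 0.16 ± 0.04 on fish oil (limma adjusted p = 0.00555). On fenofibrate it was at 0.09 ± 0.04 and not called (limma adjusted p = 0.0671). Its dimmer probe set was called higher on both diets, by 0.18 ± 0.05 on fenofibrate (limma adjusted p = 0.00239) and 0.17 ± 0.05 on fish oil (limma adjusted p = 0.0168). Mrpl48, the gene of mL48, ran from 9.39 over 9.49 to 9.64 in control and from 9.17 over 9.36 to 9.51 on fish oil. It fell by 0.15 ± 0.04 (SE) on the log2 scale (limma adjusted p = 0.0164). On fenofibrate the same probe set was at -0.03 ± 0.04 and not called. The dimmer probe set of Mrpl48 was called lower on both diets. It was at -0.14 ± 0.04 on fenofibrate (limma adjusted p = 0.0123) and at -0.20 ± 0.05 on fish oil (limma adjusted p = 0.00322). Leaving out control replicates 1, 2 and 9, which stood apart in earlier work on these arrays, ended the fish oil calls of Mrpl2, Mrpl9 and Mrps10 (limma adjusted p of 0.0721, 0.179 and 0.0501). Mrps10 also lost its call with each array centred on its median (limma adjusted p = 0.0637) and with consecutive label numbers as a random block (limma adjusted p = 0.0571), and Mrpl9 with array weights (limma adjusted p = 0.0687).

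The shift on fenofibrate was seen on every array of the group but varied in size. For each array the median over the 76 genes of the deviation from the control mean was taken. It ran from -0.03 over -0.0024 to 0.05 in control, from 0.05 over 0.15 to 0.34 on fenofibrate and from -0.03 over 0.06 to 0.15 on fish oil. All 12 fenofibrate arrays lay above the highest control array, the lowest of them barely (0.0492 against 0.0480), and 6 of 11 fish oil arrays did. Without Mrpl45 and Mrps36 that full separation was lost. Fenofibrate replicates 12 and 2, at 0.0419 and 0.0484, then lay below the highest control array, at 0.0507. The fenofibrate median was then 0.14, against -0.0024 in control. Over all 76 genes the highest fenofibrate arrays were replicates 3, 4 and 5 at 0.33, 0.29 and 0.34, whose label numbers (9, 10 and 11) follow each other. The random block joined 9 with 10 but not with 11. The lowest were replicates 2, 9 and 12, between 0.05 and 0.06. On the fenofibrate arrays 45 to 73 of the 76 genes exceeded their control mean, on the control arrays 27 to 52. The same median over all genes tested stayed between -0.06 and 0.05 on every array.

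**Figure D3:**
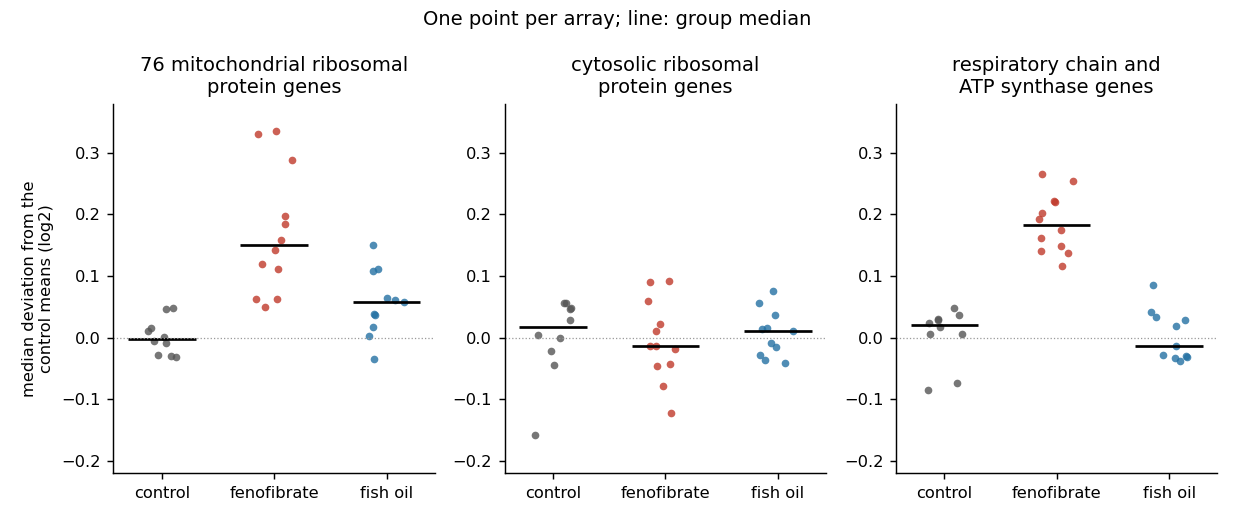
Median deviation from the control means (log2) on each array for the 76 mitochondrial ribosomal protein genes, 38 cytosolic ribosomal protein genes and 70 respiratory chain and ATP synthase genes; lines are group medians. Fenofibrate arrays lie at 0.05 to 0.34 in the first panel and 0.12 to 0.27 in the panel of the respiratory chain. They lie above all control arrays in both, barely so in the first, and overlap the control arrays in the second.

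Within groups the 76 genes tended to vary together. Over the 33 arrays, after each group's mean was removed, the median Pearson r of their 2850 pairs was 0.28. It was 0.31 among the respiratory chain genes, 0.43 among the cytosolic ribosomal protein genes and 0.02 over all pairs of genes tested; the points share arrays and mice, and no test was made. Mrpl55, the gene of bL31m, followed the mean of the other 75 most closely (r = 0.86), and Mrpl52, the gene of mL52, least (r = -0.25).

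The rise on fenofibrate extended to most of the mitochondrial protein lists, in different depth, beside 22% of all genes called higher and 18.9% lower. Of 70 measured subunits of the respiratory chain and ATP synthase, 58 rose and 1 fell, with a median of 0.19. Ndufab1, the mitochondrial acyl carrier protein and a complex I subunit, had the clearest rise at 0.72 ± 0.04 (limma adjusted p = 3.07e-15). Of 35 genes of mitochondrial protein import, 27 rose and none fell (median 0.19), among them Mipep, a protease that trims imported precursors, at 0.83 ± 0.09, and the chaperonin genes Hspe1 at 0.56 ± 0.06 and Hspd1 at 0.38 ± 0.05. The 20 genes of mitochondrial beta-oxidation, the best known fibrate targets, gave 18 rises and a median of 0.64. The 38 cytosolic ribosomal protein genes did not follow, with 4 rises, 2 falls (Rps6 at -0.25 ± 0.06 and Rpl8 at -0.11 ± 0.04) and a median of -0.02.

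On fish oil the respiratory chain list had 3 rises and 4 falls of 70 (median 0.01). The import list had 9 rises and 3 falls of 35 (median 0.09), and beta-oxidation 16 rises and 1 fall of 20 (median 0.29). The shares called higher were 4.29%, 25.7% and 80%. Over all genes tested, 7.53% were called higher and 7.00% lower on fish oil. The cytosolic ribosomal protein list had 0 calls.

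The lists that work directly on or beside the mitochondrial ribosome moved less evenly. Over all genes tested, 22% were called higher and 18.9% lower on fenofibrate, and 7.53% and 7.00% on fish oil. Of 15 translation factors, 6 rose on fenofibrate and none fell (median 0.11). These included the elongation factors Tufm at 0.36 ± 0.06 and Gfm1 at 0.38 ± 0.05, the Tufm exchange factor Tsfm at 0.47 ± 0.11, and Gfm2, which helps to recycle ribosomes, at 0.43 ± 0.09. On fish oil 4 of the 15 rose, among them Gfm1 by 0.25 ± 0.05 and Mtif2, the initiation factor that binds the initiator tRNA, by 0.26 ± 0.07. Of 28 genes of ribosome assembly and rRNA modification, 12 rose and 3 fell on fenofibrate. Mterf4, which guides a methyltransferase to the ribosomal RNA, rose by 0.69 ± 0.07 (limma adjusted p = 5.83e-10) and Ddx28, a helicase of large subunit assembly, by 0.53 ± 0.12. On fish oil 3 of the 28 rose and 1 fell. Of 18 mitochondrial aminoacyl-tRNA synthetases and related enzymes, 8 rose and 1, the seryl-tRNA synthetase gene Sars2, fell on fenofibrate (-0.24 ± 0.08), and 5 rose on fish oil. The median of these 18 was 0.17 on fenofibrate and 0.17 on fish oil. Gatb, part of the enzyme that makes glutaminyl-tRNA, rose by 0.74 ± 0.08 on fenofibrate, while Nars2, the asparaginyl-tRNA synthetase, was not called there and rose by 0.60 ± 0.09 on fish oil.

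**Figure D4:**
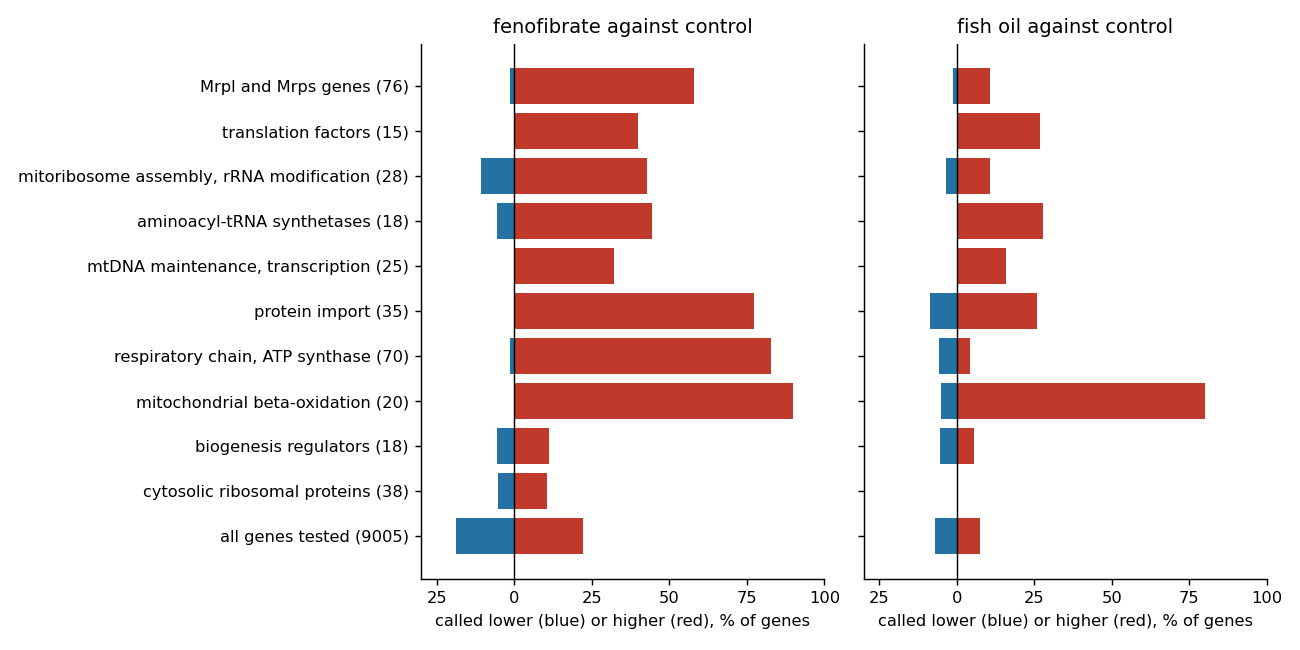
Share of each gene list called higher (right of 0) or lower (left of 0) by limma at adjusted p under 0.05, for fenofibrate and for fish oil against control; the number of genes tested is in brackets. On fenofibrate the share of Mrpl and Mrps genes called higher (57.9%) lies below those of protein import (77.1%), the respiratory chain (82.9%) and beta-oxidation (90%) and above all genes (22%).

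Of 25 genes of mitochondrial DNA maintenance and transcription, 8 rose on fenofibrate and none fell (median 0.15). Over all genes tested, 22% were called higher and 18.9% lower. Tfam, which packages mitochondrial DNA and starts its transcription, rose by 0.20 ± 0.05 (limma adjusted p = 0.00153), and Tfb2m, the transcription factor that opens the promoter, by 0.27 ± 0.06 (limma adjusted p = 0.000966). Polrmt, the mitochondrial RNA polymerase, was at 0.09 ± 0.06 and not called. On fish oil 4 of the 25 rose and none fell (median 0.14), beside 7.53% of all genes called higher and 7.00% lower. The 18 measured regulators of biogenesis gave 2 rises and 1 fall on fenofibrate, with a median of -0.02. Their share of rises, 11.1%, lay below the 22% of all genes, and 18.9% of all genes were called lower. The PGC-1 coactivators did not pass the test: Ppargc1a was at -0.31 ± 0.23 (95% interval -0.77 to 0.15), Ppargc1b at -0.31 ± 0.22 and Pprc1 at -0.24 ± 0.15. Nor did Gabpa, the DNA-binding subunit of GABP, at 0.05 ± 0.06, or Nrf1, at -0.14 ± 0.09 on a dim probe set. The calls were Esrrg, an oestrogen-related receptor, at 0.61 ± 0.17 on a dim probe set, Tfe3, a transcription factor of lysosome and mitochondrial genes, at 0.26 ± 0.10, and Crtc2, a CREB coactivator, which fell by 0.43 ± 0.14 on the log2 scale.

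Ribosomal proteins that carry other names were not uniform either. Ptcd3 (mS39), an RNA-binding protein of the small subunit, rose by 0.32 ± 0.06 on fenofibrate and by 0.25 ± 0.06 on fish oil. Dap3 (mS29), at -0.10 ± 0.09 on fenofibrate, Chchd1 (mS37), at -0.0033 ± 0.05, and Gadd45gip1 (mL64), at -0.10 ± 0.06, were not called in either comparison with control. Aurkaip1 had no probe set of its own here.

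Several genes were read by more than 1 probe set, and these did not always give the same answer. Of 25 such genes, 9 had every probe set called higher on fenofibrate, 4 (Mrpl27, Mrpl3, Mrpl52 and Mrps15) had none called and 12 had probe sets that differed in call. For 5 genes, Mrpl15, Mrpl3, Mrpl52, Mrps14 and Mrps21, the probe sets differed in sign. Mrps21, the gene of bS21m, had 1 probe set higher (0.27 ± 0.05) and 1 lower (-0.28 ± 0.11), the latter with a mean log2 value of 4.68 over all arrays; the mean of the pair gave -0.0023 and no call. Mrps14, the gene of uS14m, had 0.14 ± 0.04, called, and -0.13 ± 0.05, not called; the mean of the pair gave 0.0065 and no call (limma adjusted p = 0.911). For Mrpl15, the gene of uL15m, 4 of 6 probe sets were higher.

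Markers of liver cell types were also called on fenofibrate, where 18.9% of all genes tested were called lower and 22% higher. Of 11 measured hepatocyte markers, 8 were lower and 0 higher than control, with a summed level on the linear scale of 174302 to 191629 against 196391 to 213211. Stellate markers were lower for 6 and higher for 1 of 10 (5433 to 6557 against 6755 to 7719), and sinusoidal endothelial markers lower for 7 and higher for 1 of 14 (6693 to 7920 against 7731 to 9286). Kupffer cell markers were lower for 3 of 14, a share near that of all genes, with overlapping sums (7155 to 14974 against 10358 to 16857). On fish oil 3 of 11 hepatocyte and 5 of 14 sinusoidal endothelial markers were lower, beside 7.00% of all genes. None of these 4 lists had a higher call on fish oil. Of the remaining lists, 1 of 7 cholangiocyte, 2 of 11 lymphocyte and 2 of 7 blood cell markers passed the filter, and no adipocyte marker did. On fenofibrate 1 lymphocyte marker was higher, and 1 blood cell marker was higher and 1 lower; on fish oil 1 blood cell marker was higher. The part of cell composition in the rise of the mitochondrial ribosomal protein genes was not tested; in whole liver RNA, fewer cells of a type and less RNA per cell cannot be told apart.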

How the data were processed

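The authors deposited log2 expression values per probe set, made with GCRMA (version 2.24.1, as the submitters' processing notes list it), which corrects background by probe sequence and normalizes between arrays, so small differences depend on that normalization. Groups came from the sample titles (control n = 10, fenofibrate n = 12, fish oil n = 11). Probe sets assigned to 1 gene were kept when they reached log2 4 on 10 of 33 arrays, and the one with the highest mean stood for its gene. The deposited values were fitted with limma 3.58.1 in R 4.3.3 (lmFit and eBayes, group as the only term, all arrays), with Benjamini-Hochberg adjustment over 9005 genes; errors are SE. The procedure was tested on simulated data. Lists are described by counts and medians, with no set test. The members and lists were chosen with earlier results of these data known.

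Named members were the 8 largest rises and falls called in each comparison, the 3 brightest and 3 dimmest, those whose probe sets disagreed, and a fixed set of paralogs, proteins with other names and regulators; from each other list up to 4 called genes with the smallest adjusted p per comparison were eligible. 4 probe sets shared with another gene (of Mrpl30, Mrpl53 and Mrps34) were not used, so Mrpl30 and Mrpl53 are not among the 76. Promoter windows are from RefSeq.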

Additional observations from a re-analysis of the deposited data

Results flagged for a closer look

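In 5 of the 40 members that were named, 1 control array lay far from the other 9. The gap to the nearest control array exceeded the limit of Dixon's test as a share of the whole control range, which chance passes in about 1 in 20 groups; over all 76 genes it was passed by 8. Groups of 11 or 12 arrays were not examined in this way.

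Mrpl17 was highest on control replicate 9, at 10.74. Mrpl37 was lowest on control replicate 8, at 7.92. Mrps21 was highest on control replicate 10, at 9.72. Mrps27, which encodes a small subunit protein with pentatricopeptide repeats, was highest on control replicate 5, at 7.02. Mrps6 was highest on control replicate 2, at 8.59. The arrays differ from gene to gene. All 5 values stayed in the tests.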

How the results depend on the processing

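Each result was recomputed under 12 alternatives (filters, centring, probe set rule, variance model, array weights, blocks, fewer arrays), and the counts and medians also with proteins of other names added. Of the 44 genes higher on fenofibrate than in control, 34 were called under all 12, as were 5 of the 8 higher and the 1 lower on fish oil, and 20 of the 25 higher and 1 of the 2 lower on fenofibrate than on fish oil. The median difference between fenofibrate and control ranged from 0.15 with arrays centred to 0.20 without the 5 arrays whose label number carries the suffix A.

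The counts of lower genes are small, so a change of 1 gene moves them by a large factor. For fenofibrate against control it was 1 and became 0 with no filter, with consecutive label numbers as a random block, with the replicate block, with only the groups compared and without the suffix A arrays; it became 3 over every probe set and 2 without control replicates 1, 2 and 9. For fish oil against control it rose from 1 to 2 over every probe set, with array weights and without those controls. For fenofibrate against fish oil it went from 2 to 1 with no filter and with the random block, and to 3 over every probe set and with proteins of other names added. Array weights raised the genes higher on fish oil from 8 to 15. For Mrps21 the mean of its probe sets turned the fenofibrate difference to -0.0023 against control and to -0.092 against fish oil. With the random block, which lost Mrpl11, Mrpl35, Mrpl57 and Mrps23 on fenofibrate, Mrps10 on fish oil and Mrpl19 and Mrps5 between the treatments, 40, 7 and 23 genes were higher; over all genes, the fish oil calls went from 1308 to 845. The causes were not tested.

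Replicate numbers were not taken to pair the arrays. Same-numbered arrays of different groups correlated at -0.21 to 0.35 (median 0.05), with 12 of 31 pairs above 0.1. Differently numbered arrays of different groups correlated at -0.41 to 0.40 (median -0.02), with 84 of 331 pairs above 0.1. Only 3 arrays correlated best with their own number. With the replicate block 44 genes were higher on fenofibrate and 11 on fish oil than in control, and 30 on fenofibrate than on fish oil.
Among 1440 single-gene results, 1396 kept their direction and call, 25 lost and 17 gained a call, and 2 reversed; a difference called in neither fit was compared by call only. On the probe sets that stood for the 76 genes no value fell below 6.13. Whether signal limited the calls was not tested.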
